A study of Mus musculus with 4 samples.

Results

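The genes described here encode lysosomal hydrolases, their luminal helper proteins, proteins of the lysosomal membrane, the transcription factor TFEB and the subunits of the vacuolar H+-ATPase (V-ATPase), the proton pump that acidifies the lysosome. They were chosen by name, as 36 gene symbols matched exactly in the deposited table. These genes and the further gene lists below were chosen with earlier results of these data known. Counts of calls set against all genes may partly reflect that choice. All 36 were found among 17691 genes, and cathepsins were left out. They fall into 13 hydrolases, 3 soluble luminal proteins that are not hydrolases, 5 membrane proteins, 1 transcription factor and 14 V-ATPase subunits or accessory proteins. Lung RNA was sequenced from wild-type C57BL/6 mice aged 6 to 8 weeks, kept free of specific pathogens. One group had been given bleomycin through the nose, a DNA-breaking drug that injures the lung and leads to fibrosis, and the other had been given PBS, a buffer, with a treatment time of 10 days. Each group is represented by 2 libraries. The series' protocol speaks of more groups of mice and its design text of more replicates than the 2 groups of 2 libraries analysed here. No label says that the libraries came from separate mice, so p-values measure the spread between these libraries, which may be technical.

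Lysosomes break down material taken up from outside the cell and worn-out parts of the cell itself. Their hydrolases each cut a particular bond in a sugar chain, lipid or protein, and most work only in the acid that the V-ATPase maintains. The pump has a membrane sector, V0, which carries protons, and a cytosolic sector, V1, which splits ATP and drives the rotor. TFEB and its relatives bind a short palindrome around CACGTG in the promoters of many lysosomal genes, and their activity is set mainly by phosphorylation and entry into the nucleus. In lung, macrophages are rich in lysosomes, and the lamellar bodies in which alveolar type II cells store surfactant are lysosome-related organelles.

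Values are deposited FPKM, fragment numbers scaled by transcript length and by library size. Depth, estimated from the spacing of low values, came to 17300000 and 17800000 fragments for bleomycin replicates 1 and 2 and to 17000000 and 17200000 for PBS replicates 1 and 2. At that depth the lowest value of any of the 36 genes, that of Gla with PBS, stood for about 249 fragments. Over all genes tested, the median absolute log2 difference was 0.16 between the bleomycin libraries and 0.09 between the PBS libraries. Y-linked transcripts separated the groups. Eif2s3y was listed at 0 in both bleomycin libraries and stood at 26.4 and 28.9 FPKM in the PBS libraries, so sex and treatment cannot be told apart. Of the 36 genes, 5 lie on the X chromosome (Gla, Ids, Lamp2, Atp6ap1 and Atp6ap2), of which 1 was called, and 12 of the 31 autosomal genes were called. Hepatocyte markers fell in 7 of 7 cases, summing to 6.73 and 5.94 FPKM against 80.9 and 79.7 FPKM with PBS, and 4 of 4 erythroid genes fell. FPKM are relative to a library's total, and 1 gene, the club cell secretoglobin Scgb1a1, held 3.98% and 4.28% of summed FPKM with bleomycin and 11.2% and 8.35% with PBS.

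After bleomycin, hydrolase genes and the genes of the pump's membrane sector rose in part, while TFEB and the lysosomal membrane proteins did not pass the test. By limma, with p-values adjusted over 12986 genes and a threshold of 0.05, 13 of the 36 genes were called higher, 0 lower and 23 were not called. The background over all genes tested was 8.59% called higher and 7.69% called lower, or 16.3% in either direction. At an unadjusted p under 0.05, 20 of the 36 were higher and 0 lower. The shares just given are for adjusted p and are no background for these counts. At the unadjusted threshold, the shares of all genes tested were well above 8.59% higher and 7.69% lower. Over all genes tested, lower genes slightly outnumbered higher ones at that threshold. The share of the 36 that was higher was above that of all genes at the same threshold. All 36 passed the filter on low values, a mean of at least 1 FPKM. Their median log2 change, on the log2(FPKM + 1) scale used throughout, was 0.36, against -0.02 over all genes tested. Both bleomycin libraries stood above both PBS libraries for 25 of the 36 genes and below them for 0, against 31.5% and 35.0% of all genes tested. Summed over the 36 genes, levels came to 4212 and 3601 FPKM with bleomycin and 2778 and 2862 FPKM with PBS. That was 0.888% and 0.781% of each bleomycin library's summed FPKM, against 0.570% and 0.580% in the PBS libraries. In such bulk tissue, more cells of a type and more RNA per cell cannot be told apart. The changes were moderate within this experiment: for Npc2, the largest of them, 4.45% of all tested genes had a larger log2 change.

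**Figure D1:**
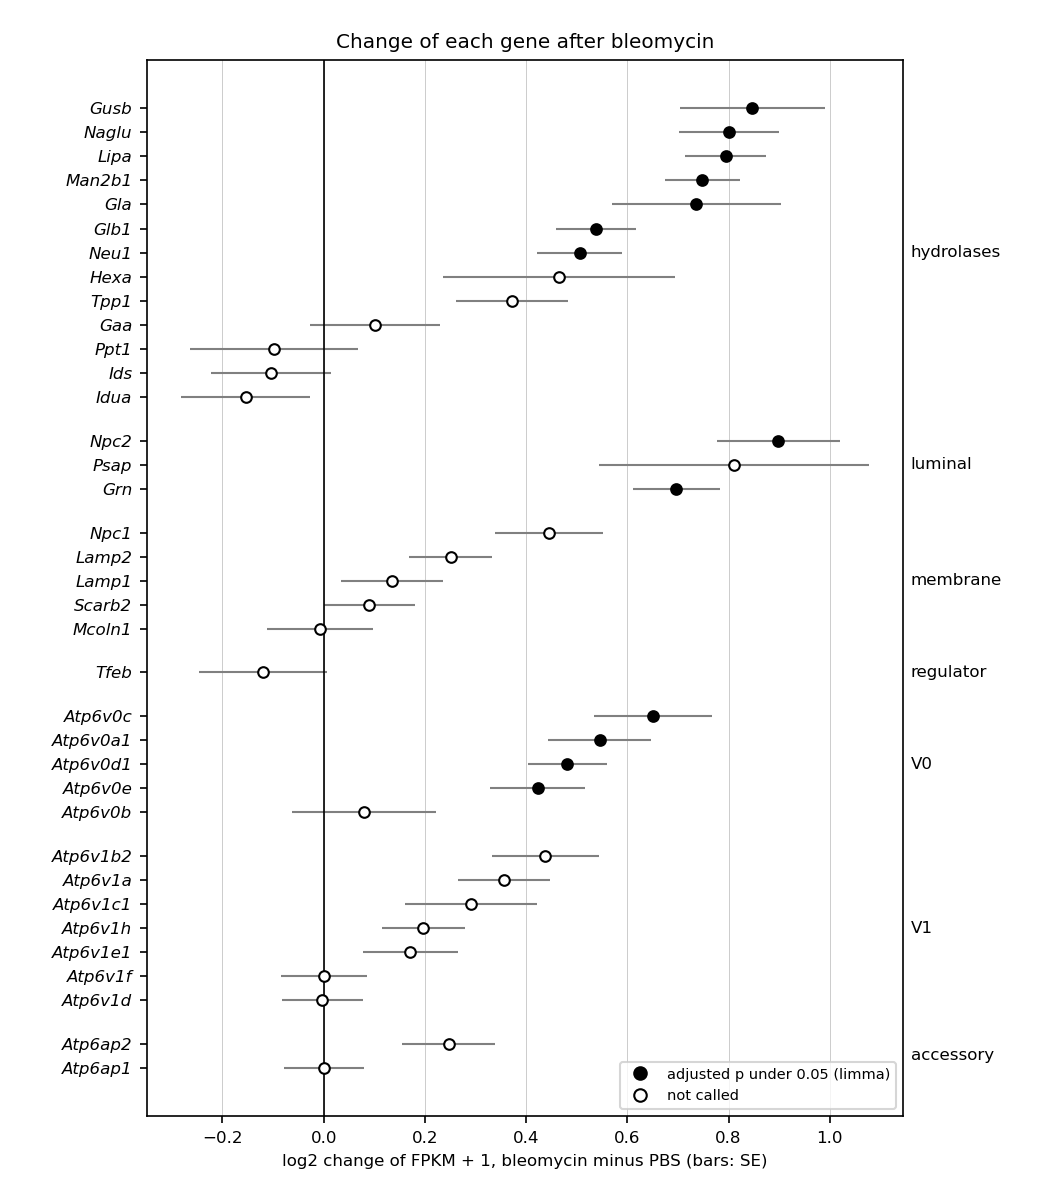
Log2 change of FPKM + 1, bleomycin minus PBS, for each of the 36 genes, grouped by role and sorted within a role; bars are standard errors from limma with 2 libraries per group, and filled points have an adjusted p under 0.05. The 13 filled points all lie right of 0, between 0.42 and 0.90, and belong to the hydrolases, the luminal proteins and V0.

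Promoter windows, from 250 bases before to 50 bases after the annotated start, were found for 32 of the 36 genes in RefSeq (GRCm38.p6). The letters CACGTG occurred in the windows of 10 of these 32 genes, or 31.2%, against 11.5% of the 10010 tested genes with a window and 8.09% of all 27025 genes with one. The longer palindrome TCACGTGA, which contains CACGTG, occurred in 5 of 32, against 2.11% of tested genes. GTCACGTG, searched on both strands and overlapping the other letters, occurred in 7 of 32, against 4.72% of tested genes. Genes with CACGTG numbered 4 of 13 hydrolases and 4 of 11 V-ATPase genes with a window. Of the 13 genes that rose 5 held CACGTG in their window, and of the 23 that did not pass, 4 of which have no window, 5 did. Stretches of 7 promoters are shown because they carry these letters in genes that rose (the first 5) and in genes that did not pass (Lamp1 and Mcoln1). They are written 5′ to 3′ on the strand of the gene, with the palindrome in capitals. A match describes the letters and is not a binding site.

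Gla, on the minus strand at chrX:134601167-134601255: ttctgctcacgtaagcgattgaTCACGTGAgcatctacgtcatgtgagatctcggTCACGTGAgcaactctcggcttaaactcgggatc
Glb1, on the plus strand at chr9:114400970-114401095: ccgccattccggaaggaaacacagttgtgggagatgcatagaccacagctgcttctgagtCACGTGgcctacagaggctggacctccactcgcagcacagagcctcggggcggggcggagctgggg
Naglu, on the plus strand at chr11:101069961-101070086: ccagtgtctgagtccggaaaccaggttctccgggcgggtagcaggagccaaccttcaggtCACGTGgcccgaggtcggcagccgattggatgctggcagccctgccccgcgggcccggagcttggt
Atp6v0d1, on the minus strand at chr8:105566015-105566127: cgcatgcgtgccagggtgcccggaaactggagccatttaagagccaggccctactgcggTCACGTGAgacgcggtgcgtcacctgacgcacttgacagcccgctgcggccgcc
Atp6v0e, on the plus strand at chr17:26676339-26676445: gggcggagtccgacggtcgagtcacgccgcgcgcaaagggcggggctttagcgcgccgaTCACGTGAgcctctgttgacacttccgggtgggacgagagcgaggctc
Lamp1, on the plus strand at chr8:13159040-13159165: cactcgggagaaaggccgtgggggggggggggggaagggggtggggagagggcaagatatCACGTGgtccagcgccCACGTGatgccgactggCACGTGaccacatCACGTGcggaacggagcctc
Mcoln1, on the plus strand at chr8:3500388-3500513: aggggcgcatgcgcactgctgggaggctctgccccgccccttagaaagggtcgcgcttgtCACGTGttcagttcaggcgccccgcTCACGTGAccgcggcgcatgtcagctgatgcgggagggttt

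The Lamp1 window held CACGTG 4 times, and the windows of Gla, Mcoln1 and Atp6v0b, the last not shown, held it 2 times each. Both copies in Gla were of the longer TCACGTGA form. In Atp6v0d1 the letters began 3 bases before the annotated start, and in Atp6v0e at base 4 of the transcript. Lamp1, with the most copies, had a log2 change of 0.14 ± 0.10 (SE, n = 2 per group, as for all changes here). Gla, Mcoln1 and Atp6v0b, with 2 copies each, had changes of 0.74 ± 0.17, -0.01 ± 0.10 and 0.08 ± 0.14. Whether the number of copies goes with the change in level was not tested.

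Of the 13 hydrolases, 7 rose, 0 fell and 6 did not pass, with a median log2 change of 0.51. The 7 were Gusb, Naglu, Lipa, Man2b1, Gla, Glb1 and Neu1, which cut sugars from glycosaminoglycans, glycoproteins and glycolipids or, for Lipa, cleave cholesteryl esters and triglycerides. Their fold changes in FPKM lay between 1.46 and 1.85. Gusb, the beta-glucuronidase of glycosaminoglycan breakdown, stood at 53.3 and 40.8 FPKM in the bleomycin libraries and at 25.3 and 25.7 FPKM in the PBS libraries. Its log2 change of 0.85 ± 0.14 was the largest among the hydrolases (adjusted p = 0.0254 by limma). Naglu, which removes N-acetylglucosamine from heparan sulfate, stood at 19.1 and 19.4 FPKM with bleomycin and at 11.4 and 9.94 FPKM with PBS (0.80 ± 0.10, adjusted p = 0.0137 by limma). In both genes the lower bleomycin library lay well above the higher PBS library. Lipa, the acid lipase, stood at 63.1 and 59.0 FPKM with bleomycin and at 35.0 and 34.5 FPKM with PBS (0.79 ± 0.08, adjusted p = 0.0101 by limma). Man2b1, the alpha-mannosidase of glycoprotein breakdown, stood at 49.3 and 48.5 FPKM with bleomycin and at 28.7 FPKM in both PBS libraries (0.75 ± 0.07, adjusted p = 0.00979 by limma). The groups were far apart for both genes, and Man2b1 had the lowest adjusted p of the 36.

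Gla, the alpha-galactosidase that removes the end sugar of globotriaosylceramide and lies on the X chromosome, stood at 10.2 and 7.36 FPKM with bleomycin and at 4.62 and 4.99 FPKM with PBS. Its log2 change was 0.74 ± 0.17, close to the threshold (adjusted p = 0.0489 by limma). Glb1, the beta-galactosidase that acts on GM1 ganglioside and keratan sulfate, stood at 21.3 and 21.7 FPKM with bleomycin and at 14.7 and 14.3 FPKM with PBS (0.54 ± 0.08, adjusted p = 0.0196 by limma). Part of the Glb1 locus overlaps Tmppe in the annotation, and the authors' counting could split fragments between them. Neu1, the sialidase that works in a complex with beta-galactosidase, stood at 15.9 and 16.6 FPKM with bleomycin and at 10.9 and 11.4 FPKM with PBS (0.51 ± 0.08, adjusted p = 0.0251 by limma). The groups did not overlap in any of these 3 genes, which a call makes likely and which is no separate support. Bleomycin stood apart above PBS for 31.5% of all genes tested and below for 35.0%.

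Hexa and Tpp1 had the highest levels of the hydrolases in both groups and did not pass. Hexa, which encodes the alpha subunit of beta-hexosaminidase, stood at 109 and 68.3 FPKM with bleomycin and at 60.7 and 63.7 FPKM with PBS (0.47 ± 0.23, adjusted p = 0.220 by limma). Bleomycin replicate 1 stood far above the other 3 libraries, while replicate 2 stood just above the PBS libraries. Tpp1, a tripeptidyl peptidase, stood at 68.6 and 57.3 FPKM with bleomycin and at 48.3 and 48.0 FPKM with PBS (0.37 ± 0.11, adjusted p = 0.0868 by limma). For Gaa, Ppt1, Ids and Idua the groups overlapped, with log2 changes between -0.15 and 0.10. Of these, Ppt1, a thioesterase that takes fatty acids off proteins, stood at 49.2 and 35.6 FPKM with bleomycin and at 45.6 and 44.3 FPKM with PBS. Idua, the iduronidase of heparan and dermatan sulfate breakdown, was the lowest, at 6.51 and 5.45 FPKM with bleomycin and at 6.34 and 7.17 FPKM with PBS (-0.15 ± 0.13, adjusted p = 0.434 by limma), and its locus overlaps Slc26a1 and Dgkq. Enzymes of glycosaminoglycan breakdown thus stood on both sides, with Gusb and Naglu called higher and Idua and Ids not called.

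The 3 luminal proteins had the largest changes as a group, with a median log2 change of 0.81, and 2 of 3 passed. Npc2, which carries cholesterol inside the lysosome to the membrane protein NPC1, stood at 379 and 423 FPKM with bleomycin and at 200.01 and 229.85 FPKM with PBS. Its log2 change of 0.90 ± 0.12 was the largest of the 36 genes (adjusted p = 0.0169 by limma). Grn, which encodes progranulin, a secreted and lysosomal glycoprotein made by macrophages among other cells, stood at 187 and 179 FPKM with bleomycin and at 109.9 and 115 FPKM with PBS (0.70 ± 0.09, adjusted p = 0.0135 by limma). Psap, the precursor of the saposins that help hydrolases reach sphingolipids, was the most abundant of all 36 genes. It stood at 1026 and 610.2 FPKM with bleomycin and at 465 and 438 FPKM with PBS (0.81 ± 0.27, adjusted p = 0.106 by limma). Its mean was 1.81 times that with PBS, about as for Npc2, but the bleomycin libraries differed by 1.68 times between themselves.

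None of the 5 membrane proteins passed by limma. At an unadjusted p under 0.05, Npc1 and Lamp2 were higher. Lamp1, an abundant glycoprotein of the lysosomal membrane, stood at 403 and 387 FPKM with bleomycin and at 348 and 372 FPKM with PBS (adjusted p = 0.392 by limma). Lamp2, its X-linked relative, stood at 162 and 169 FPKM with bleomycin and at 138 and 139.8 FPKM with PBS (0.25 ± 0.08, adjusted p = 0.105 by limma). Npc1, the membrane cholesterol transporter that receives cholesterol from NPC2, stood at 25.7 and 30.4 FPKM with bleomycin and at 20.1 and 20.4 FPKM with PBS (0.45 ± 0.11, adjusted p = 0.0549 by limma). The bleomycin libraries lay above the PBS libraries in these 3 genes, and the gap was narrow for Lamp1. Scarb2, the receptor that brings glucocerebrosidase to lysosomes, averaged 87.1 ± 5.30 FPKM with bleomycin and 81.7 ± 3.55 FPKM with PBS (SD, n = 2). Mcoln1, the calcium-releasing TRPML1 channel, stood at 20.5 and 17.5 FPKM with bleomycin and at 18.9 and 19.2 FPKM with PBS. Tfeb itself stood at 14.9 and 12.1 FPKM with bleomycin and at 14.1 and 15.2 FPKM with PBS (-0.12 ± 0.13, adjusted p = 0.538 by limma), with the groups overlapping. Its mRNA level says nothing of the protein's phosphorylation or place in the cell.

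**Figure D2:**
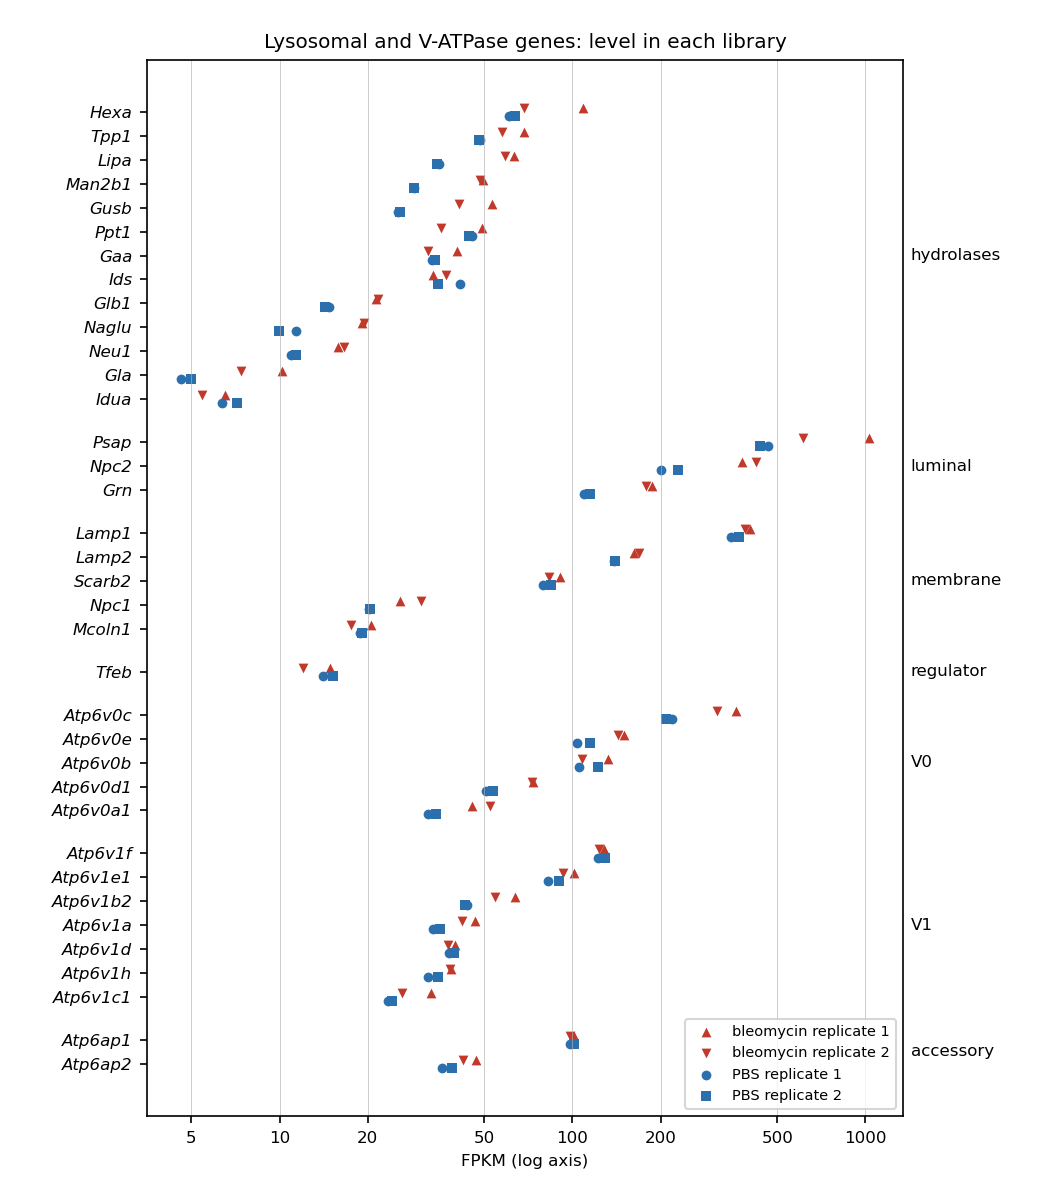
FPKM of each of the 36 genes in each library on a log axis, grouped by role and sorted by the bleomycin mean; triangles are the 2 bleomycin libraries and circles and squares the 2 PBS libraries. Psap, Lamp1, Npc2 and Atp6v0c are the highest, the groups are apart for genes such as Man2b1, and bleomycin replicate 1 stands alone for Psap and Hexa.

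Of the 14 V-ATPase genes, 4 rose, 0 fell and 10 did not pass, with a median log2 change of 0.27. All 4 belong to the 5 genes of V0, and 0 of 7 genes of V1 and 0 of 2 accessory genes passed by limma. The V0 count was 1, Atp6v0d1, without a filter on low values and 2, Atp6v0a1 and Atp6v0c, with the replicate block, so that 0 of the 4 calls held in every alternative. At an unadjusted p under 0.05, 7 of the 14 genes were higher. The share of all genes tested that was higher at that threshold was smaller, but well above the 8.59% for adjusted p. Whether V0 differed from V1 was not tested. Atp6v0c, which encodes the proteolipid of the proton-carrying ring, was the most abundant subunit gene. It stood at 362 and 311 FPKM with bleomycin and at 219 and 208 FPKM with PBS (0.65 ± 0.12, adjusted p = 0.0285 by limma). Pseudogenes named for Atp6v0c are annotated in the mouse genome, so its value is uncertain to the extent that the authors' counting mixed them. Atp6v0a1, one of the genes of the large subunit that lines the proton path, stood at 45.5 and 52.1 FPKM with bleomycin and at 32 and 34.2 FPKM with PBS (0.55 ± 0.10, adjusted p = 0.0310 by limma). Atp6v0d1, the subunit that joins the ring to the central stalk, stood at 73.3 and 72.7 FPKM with bleomycin and at 50.6 and 53.5 FPKM with PBS (0.48 ± 0.08, adjusted p = 0.0239 by limma). Atp6v0e, a small membrane subunit, stood at 150.3 and 143 FPKM with bleomycin and at 104 and 114 FPKM with PBS (0.42 ± 0.09, adjusted p = 0.0469 by limma). The groups did not overlap in any of the 4 genes, but a call favours such genes, so this is no separate support. Of all genes tested, 31.5% had both bleomycin libraries above both PBS libraries and 35.0% below. Atp6v0b, a minor proteolipid of the same ring, stood at 133 and 108 FPKM with bleomycin and at 105 and 122 FPKM with PBS, and the groups overlapped (adjusted p = 0.724 by limma).

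The V1 genes had log2 changes between -0.00 and 0.44. Atp6v1b2 and Atp6v1a, which encode the B and A subunits of the ATP-splitting hexamer, lay closest to the threshold. Atp6v1b2 stood at 63.9 and 54.2 FPKM with bleomycin and at 43.6 and 42.8 FPKM with PBS (0.44 ± 0.11, adjusted p = 0.0557 by limma). Atp6v1a stood at 46.6 and 42.0 FPKM with bleomycin and at 33.4 and 35.3 FPKM with PBS (0.36 ± 0.09, adjusted p = 0.0621 by limma). Both bleomycin libraries were above both PBS libraries for these genes and for Atp6v1c1, Atp6v1h and Atp6v1e1. Atp6v1f, a small subunit of the central rotor and the most abundant V1 gene, stood at 128 and 123 FPKM with bleomycin and at 122 and 129.6 FPKM with PBS. Atp6v1d, the rotor shaft, stood at 39.6 and 37.5 FPKM with bleomycin and at 37.9 and 39.3 FPKM with PBS. Neither of these rotor genes separated the groups. Both accessory genes lie on the X chromosome. Atp6ap1, which takes part in assembling the pump, averaged 99.7 ± 2.44 FPKM with bleomycin and 99.6 ± 2.25 FPKM with PBS. Atp6ap2, the prorenin receptor, stood at 46.7 and 42.4 FPKM with bleomycin and at 35.96 and 38.73 FPKM with PBS (0.25 ± 0.09, adjusted p = 0.135 by limma).

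Subtracting the mean log2 level of the 14 V-ATPase genes from that of the 13 hydrolases gave -1.22 and -1.31 in the bleomycin libraries and -1.37 and -1.45 in the PBS libraries. Hydrolases thus stood below the pump on average in all 4 libraries, and the gap was smaller in both bleomycin libraries. Bleomycin replicate 2 and PBS replicate 1 lay closer together than the replicates of either group, and the difference was not tested.

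Several subunits of the pump are encoded by more than one gene, some with narrow tissue ranges, and 11 such genes or further subunits outside the 36 were read as well. Of the 8 of them tested, 1 rose, 1 fell and 6 did not pass, against 8.59% higher and 7.69% lower over all genes tested. Atp6v0d2, a d subunit known from osteoclasts and macrophages, stood at 41.3 and 27.9 FPKM with bleomycin and at 17.2 and 17.5 FPKM with PBS (0.93 ± 0.19, adjusted p = 0.0399 by limma). It made up 36.1% and 27.8% of the summed FPKM of both d genes with bleomycin and 25.4% and 24.7% with PBS. Atp6v1c2, a C subunit found in epithelia such as those of lung and kidney, stood at 8.51 and 7.58 FPKM with bleomycin and at 22.6 and 18.2 FPKM with PBS (-1.24 ± 0.14, adjusted p = 0.0116 by limma). Its share of both C genes was 20.5% and 22.5% with bleomycin and 49.0% and 42.9% with PBS. Since Atp6v1c1 stood at 33.0 and 26.1 FPKM with bleomycin and at 23.5 and 24.1 FPKM with PBS, the C genes summed to 41.5 and 33.7 FPKM with bleomycin and 46.1 and 42.3 FPKM with PBS. Atp6v1c1 was not called (0.29 ± 0.13, adjusted p = 0.187 by limma), and the sum of the C genes was lower in both bleomycin libraries. Tcirg1, the a subunit of osteoclasts and leukocytes, stood at 52.3 and 37.9 FPKM with bleomycin and at 30.1 and 33.1 FPKM with PBS (adjusted p = 0.121 by limma). Its share of the 4 a genes was 44.6% and 34.7% with bleomycin and 37.4% and 39.4% with PBS, without separating the groups.

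**Figure D3:**
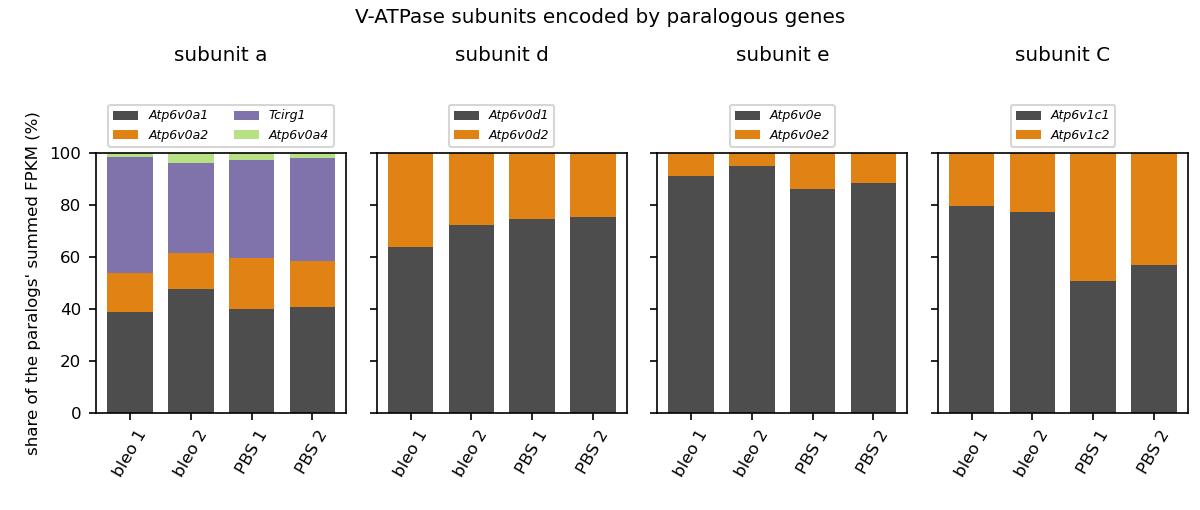
Share of the summed FPKM of each set of paralogous V-ATPase genes, in percent, in each of the 4 libraries, for subunits a, d, e and C. The share of Atp6v1c2 is 20.5% and 22.5% in the bleomycin libraries and 49.0% and 42.9% in the PBS libraries.

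Lysosomal genes outside the 36 also included more calls upward than downward. Of 94 such genes with a test, 17 were called higher, 4 lower and 73 were not called, with a median log2 change of 0.14. For these and the lists within them, the shares over all genes tested were 8.59% called higher and 7.69% lower. Among 27 further hydrolases 8 rose and 1 fell, with a median of 0.32. Acp5, the tartrate-resistant acid phosphatase of macrophages and osteoclasts, stood at 66.3 and 39.4 FPKM with bleomycin and at 12.03 and 12.83 FPKM with PBS (1.96 ± 0.25, adjusted p = 0.0149 by limma). Lgmn, the asparaginyl protease legumain, stood at 186 and 213 FPKM with bleomycin and at 76.6 and 73.2 FPKM with PBS (1.40 ± 0.10, adjusted p = 0.00621 by limma). Galc, which degrades galactosylceramide, and Dnase2a, which digests engulfed DNA, rose by 0.86 ± 0.09 and 0.81 ± 0.10 on the log2 scale. Hyal1, a hyaluronidase, fell by 0.78 on the log2 scale. Among 26 tested membrane proteins 6 rose and 1 fell, with a median of 0.07. Gpnmb, a glycoprotein of lipid-laden macrophages, stood at 52.3 and 23.1 FPKM with bleomycin and at 5.70 and 5.40 FPKM with PBS (2.45 ± 0.38, adjusted p = 0.0215 by limma). Cd68, a macrophage relative of the LAMP proteins, stood at 135 and 85.4 FPKM with bleomycin and at 37.7 and 37.0 FPKM with PBS (adjusted p = 0.0202 by limma). Litaf, a regulator of endosome sorting, and Slc11a1, a metal transporter of phagosomes, rose by 1.44 ± 0.10 and 1.28 ± 0.21 on the log2 scale. The named rises of Gpnmb, Acp5, Cd68, Litaf, Lgmn and Slc11a1 were each larger than that of Npc2, and Cd68 is also in the macrophage marker list.

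Macrophage transcripts were higher in the same libraries. Of 15 genes of recruited and tissue macrophages 10 rose and 0 fell, with a median log2 change of 1.05 and 0 genes at 0 in all libraries. They summed to 2027 and 1203 FPKM with bleomycin and 820.1 and 861 FPKM with PBS, and one of them, Cd68, is also a lysosomal gene. Apoe, the most abundant of them, was not called (adjusted p = 0.333 by limma). It stood at 982 and 557 FPKM with bleomycin and at 533 and 559 FPKM with PBS. The groups also overlapped for Csf1r and Ly6c2, with log2 changes of -0.17 and -0.07. C1qa, a complement gene of macrophages and 1 of the 10 that rose, stood at 285 and 156 FPKM with bleomycin and at 64.2 and 66.6 FPKM with PBS. Of 10 genes of resident alveolar macrophages 0 rose and 3 fell, with sums of 686 and 1352 FPKM with bleomycin and 649 and 763 FPKM with PBS. Of 9 genes of alveolar type II cells 1 rose and 0 fell, and their sums of 14165 and 10663 FPKM with bleomycin overlapped those of 12969 and 15876 FPKM with PBS. Neutrophil genes had 3 falls among 9, endothelial genes 3 falls among 9, club and ciliated cell genes 2 falls among 6, and lymphocyte genes 0 calls among 8 by limma, with 0 rises in these lists and 0 lymphocyte genes at an unadjusted p under 0.05. Among 10 fibroblast genes 3 rose and 4 fell. For all these cell lists, the shares over all genes tested were 8.59% called higher and 7.69% lower. The part of cell composition in the levels of the 36 genes was not tested.

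The bleomycin libraries differed from each other in most macrophage genes. Over the 36 genes the median ratio between them was close to that over all genes, but most of the 36 stood higher in replicate 1. Bleomycin replicate 1 had more of 14 of the 15 recruited and tissue macrophage genes than replicate 2, by a median ratio of 1.53. The PBS replicates had a median ratio of 0.969 for these genes. Of 10 genes of resident alveolar macrophages 8 had a bleomycin ratio above 1, while Marco and Chil3 stood far higher in replicate 2, with ratios of 0.18 and 0.30. Over the 13 hydrolases the median ratio between the bleomycin libraries was 1.19, and over the 14 V-ATPase genes it was 1.07, against 1.06 over all 12975 tested genes above 0 in every library. The 15 recruited and tissue macrophage genes themselves ran from 0.947, for the mannose receptor gene Mrc1, to 2.003. Psap and Hexa had the highest ratios of the 36 genes, 1.68 and 1.59, and Gla, Ppt1 and Gusb followed with 1.38, 1.38 and 1.31. Lipa, Grn, Man2b1, Naglu, Glb1, Neu1 and Npc2, all of them called higher, had ratios of 1.07, 1.05, 1.02, 0.985, 0.979, 0.956 and 0.897. Genes with close replicates pass the test more readily, so ratios near 1 among called genes are partly set by the call. Over all 36 genes, 9 had a ratio of at least 1.2, or 25.0%, against 25.9% of all genes, and the median of the 36 was 1.08 against 1.06. That share was 38.5% for hydrolases and 14.3% for V-ATPase genes. Replicate 1 was the higher for 28 of the 36, against 8084 of 12975 genes. Replicate 2 was higher by 1.2 times or more for 0 of the 36, against 1479 of 12975. Whether the 36 genes followed the macrophage genes was not tested.

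**Figure D4:**
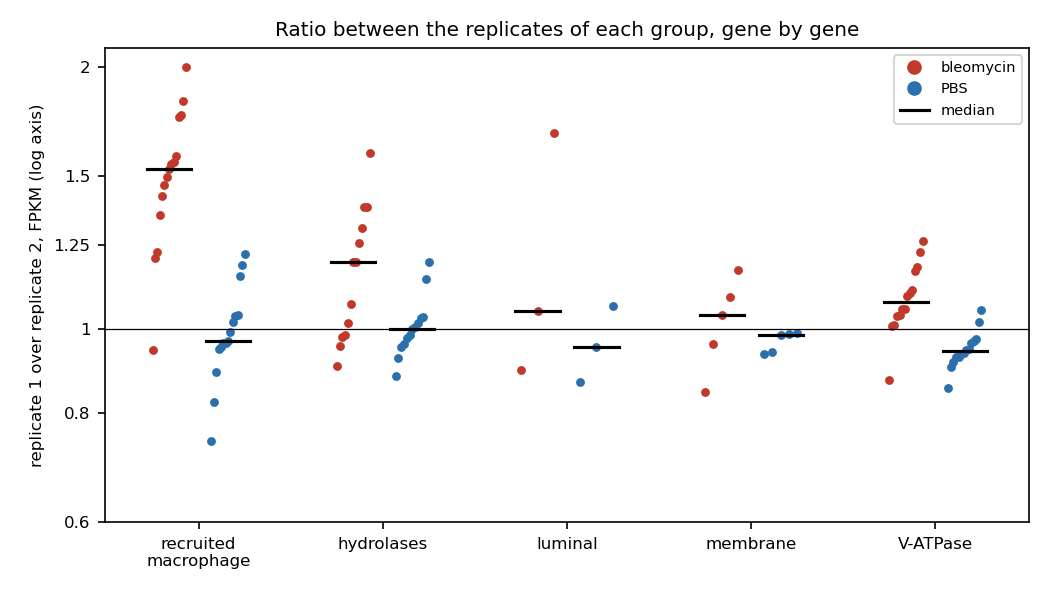
Ratio of replicate 1 to replicate 2 in FPKM on a log axis, for each gene, within the bleomycin pair and within the PBS pair; each point is a gene and the black line the median of its list. The recruited and tissue macrophage genes have a median of 1.53 between the bleomycin libraries and 0.969 between the PBS libraries. Hydrolases spread from 0.908 to 1.59 between the bleomycin libraries.

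No call held without either PBS library, among the 36 genes or among all genes tested. The median log2 change of the 36 genes was 0.34 without PBS replicate 1 and 0.38 without PBS replicate 2. Leaving out bleomycin replicate 1 gave 19 of the 36 genes higher and 1, Ppt1, lower, while over all genes 2341 were higher and 3144 lower. Leaving out bleomycin replicate 2 gave 22 of the 36 higher and 0 lower, against 2402 higher and 1949 lower over all genes.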

How the data were processed

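The unit of the deposited table is FPKM for each gene in each library, per the file headers. Per the submitters' processing notes, Bowtie2 and HISAT were used with mm10 and GRCm38. Their roles, the quantification tool and the strand setting are not given in the sources used. Of 17692 rows, 1 without a name (at most 0.000896% of a library's sum) was dropped, and 27 names that had become dates were restored through transcript accessions. Of the symbols, 16961 matched GRCm38.p6. Depth was estimated from values of 0.03 to 0.3 FPKM of genes with 1 transcript of 300 to 1000 bases; at the estimate 75.0% to 78.1% of them lay within 0.15 of a whole fragment. The estimate was picked on these same values and uses annotated length. Counts were not used, so no count model was run. Squared replicate differences had medians of 9.58 (bleomycin) and 3.01 (PBS) times the sampling noise, so no pair was counted as 1 library.

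Log2(FPKM + 1) values of the 12986 genes averaging 1 FPKM or more were tested with limma 3.58.1 in R 4.3.3 (trend, two-sided, Benjamini-Hochberg over all genes), with 2 residual and 2.76 prior degrees of freedom. The functions were tested on simulated data. Tables were made in Python 3.11.15 with numpy 2.4.6 and pandas 2.3.3. Titles gave the groups and replicate numbers. Members and lists were chosen with earlier results of these data known. Named genes are all members called, in each role the most abundant and the most changed of those not called, and up to 4 called genes of each other list with the largest change. Other genes given as markers, by ratio or as paralogs were named after their values were seen. 1 listed gene, Pgap6, was not found by name. Alternatives were other pseudocounts, filters, scalings, variance priors, a replicate block and the omission of each library in turn; fits without sex chromosome genes and with array weights were added after seeing the data.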

Additional observations from a re-analysis of the deposited data

How the results depend on the processing

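All 207 values of the 13 genes that rose, over 16 alternatives, stayed above 0. That sign was largely fixed beforehand and is no separate support. Both bleomycin libraries stood above both PBS libraries for each of the 13, and several alternatives change only the test. Of the 13, 7 (Glb1, Grn, Lipa, Man2b1, Naglu, Neu1 and Npc2) were called in every alternative other than leaving out a library. Without a filter on low values, 8 of the 36 genes, 1 V-ATPase gene and 11 other lysosomal genes were called higher. The replicate numbers share no stated source, and the differences within the pairs had a correlation of 0.02 over genes. With the replicate block, 10 of 36 genes rose, 6 of the hydrolases and 2 of the V-ATPase genes, Gla, Atp6v0d1 and Atp6v0e being lost (adjusted p = 0.0637, 0.0528 and 0.0893 by limma), and 2 other lysosomal genes fell. Rescaled to TPM, the median log2 change was 0.44 for the 36 genes, 0.34 for the V-ATPase, 0.21 for other lysosomal genes and 0.039 for all genes. It was 0.34 for the 36 genes with quantile normalization and 0.42 without X and Y chromosome genes. Calls of Tpp1, Npc1, Atp6v1a and Atp6v1b2 were gained with TPM. Leaving out a library, rises ranged from 0 to 22 of the 36 genes, 0 to 10 hydrolases, 0 to 8 V-ATPase genes, 0 to 37 other lysosomal genes and 0 to 2402 genes in all. Falls ranged from 0 to 1 of the 36 genes, 0 to 1 hydrolase, 0 to 11 other lysosomal genes and 0 to 3144 genes in all. The median ranged from 0.26 to 0.44 for the 36 genes and from 0.18 to 0.37 for the V-ATPase. A lone library is then assumed to vary like the other group. The cause was not tested. CACGTG was found in 10 windows, TCACGTGA in 5.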

Other observations

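Genes that sort hydrolases to lysosomes or control their transcription had 3 calls in all. Of 18 sorting genes 1 rose, 0 fell and 17 did not pass, with a median log2 change of -0.04. Among all genes tested, 8.59% were called higher and 7.69% lower. The riser was Igf2r, the cation-independent mannose 6-phosphate receptor that carries newly made hydrolases, at 19.4 and 20.6 FPKM with bleomycin and 10.8 and 10.2 FPKM with PBS (0.86 ± 0.09, adjusted p = 0.0101 by limma). M6pr, the smaller receptor for the same tag, stood at 92.4 and 77.3 FPKM with bleomycin and 79.9 and 81.9 FPKM with PBS (adjusted p = 0.723 by limma). The receptors thus parted, although whether they differed was not tested.

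Of 15 tested genes of lysosomal transcription and mTORC1 control 1 rose and 1 fell, against a background of 8.59% and 7.69% of all genes. Their median log2 change was 0.26, close to the 0.27 of the V-ATPase genes. Both bleomycin libraries stood above both PBS libraries for 10 of 15 and below them for 3, against 31.5% and 35.0% of all genes tested. At an unadjusted p under 0.05, 5 were higher and 3 lower. The 8.59% and 7.69% of all genes are for adjusted p and are no background for these counts. At the unadjusted threshold, all genes tested had a smaller share higher and a similar share lower. Tfe3, an X-linked relative of TFEB, stood at 23.9 and 23.3 FPKM with bleomycin and 17.95 and 18.02 FPKM with PBS (0.37 ± 0.08, adjusted p = 0.0394 by limma). Flcn, folliculin, which restrains the TFEB family through the Rag GTPases, stood at 15.18 and 13.97 FPKM with bleomycin and 19.9 FPKM in both PBS libraries (-0.42 ± 0.09, adjusted p = 0.0379 by limma). Both calls were lost with the replicate block (adjusted p = 0.0816 for Tfe3 and adjusted p = 0.0695 for Flcn by limma) and without either PBS library. Tfec, a macrophage relative, stood at 8.46 and 6.06 FPKM with bleomycin and 4.14 and 3.99 FPKM with PBS (0.69 ± 0.17, adjusted p = 0.0562 by limma).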
